A study of Mus musculus with 28 samples.

Results

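Genes of the lysosome and of autophagy, 31 in number, were followed through 28 mouse testis libraries. The members were taken from a list of symbols, and all were found among the 43280 gene rows of the count tables. They comprise 6 lysosomal membrane and transport genes, 4 proteases, 6 glycosidases, 4 genes for lipid and phosphate breakdown, 4 regulators and 7 genes of autophagosome assembly and cargo binding. The libraries hold polyadenylated RNA of animals given WIN 18,446, which blocks retinoic acid synthesis, for 7 days, then an injection of retinoic acid, and sampled 42 to 50 days later, a scheme that synchronises spermatogenesis. This treatment was shared by every group, so no library is unsynchronised.

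Of these, 10 libraries came from sorted Sertoli cells, the somatic cells that nurse germ cells in the seminiferous tubule. The mice were heterozygous for a red fluorescent protein and positive for Amh-Cre, which is active in Sertoli cells. The strain is given as derived from C57BL/6 x 129s4/SvJae, except for group A replicate 1, which is given as C57BL/6 x Amh-Cre. There are 5 groups of 2 libraries, each enriched for certain stages of the seminiferous cycle. Group B stands for stages I-III, group C for IV-VI, group D for VII-VIII, group E for IX-X and group A for XI-XII. From NANOS2 KO mice, which lack germ cells and have a CD1 background, entire testes gave the remaining 18 libraries, 2 for each of the 9 days. Their cell type label also reads Sertoli, while the protocols name whole testis for them, which is the reading used here. For the sorted libraries the extraction text speaks of germ cells, whereas the labels and the isolation text name Sertoli cells. Whether replicates are separate animals is not stated in the labels, so p-values cover the spread between these samples, which may be technical.

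Lysosomes are acidic organelles in which hydrolases break down proteins, sugars and lipids that arrive by endocytosis, phagocytosis or autophagy. Autophagy wraps cell material in a double membrane, built by the Atg proteins and marked by LC3 and GABARAP, that then fuses with the lysosome. Sertoli cells are known to engulf apoptotic germ cells and, after sperm release, the residual bodies that spermatids shed, and to degrade them in lysosomes.

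Many lysosomal genes carry an E-box with the core CACGTG, the sequence bound by the related transcription factors TFEB and TFE3. Since Tfeb was the member that differed most among the stages, the promoters were read for this core. RefSeq promoter windows (GRCm38.p6, from 250 bases before to 50 bases after a start) were found for 26 of the 31 members, as 32 windows. The core, which reads the same on both strands, stood in 9 of the 32 windows (28.1%), 1 for each of 9 genes, against 7.15% of all 32851 windows. The longer TCACGTGA, which contains the core, stood in 4 windows (12.5%), those of Ctsa, Ctsd, Gla and Mcoln1, against 0.974% of all. A match of letters is a description and says nothing of binding in these cells. The stretches that hold the core are shown here because they set these genes apart by sequence and not by level. Capitals mark CACGTG, and each sequence runs 5′ to 3′ on the gene's strand.
Ctsa, chr2:164833751-164833793, plus strand: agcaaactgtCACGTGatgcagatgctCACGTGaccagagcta
Ctsd, chr7:142388057-142388077, minus strand: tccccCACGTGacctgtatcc
Ctsd, chr7:142387910-142387935, minus strand: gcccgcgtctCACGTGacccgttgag
Mcoln1, chr8:3500438-3500489, plus strand: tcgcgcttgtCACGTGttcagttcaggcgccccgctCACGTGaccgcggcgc
Lamp1, chr8:13159090-13159161, plus strand: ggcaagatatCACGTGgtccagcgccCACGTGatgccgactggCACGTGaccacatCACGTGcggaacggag
Gla, chrX:134601184-134601242, minus strand: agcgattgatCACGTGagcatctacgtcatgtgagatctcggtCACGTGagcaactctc
Gaa, chr11:119267813-119267838, plus strand: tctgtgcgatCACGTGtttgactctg
Glb1, chr9:114401020-114401045, plus strand: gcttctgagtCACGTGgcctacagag
Atg5, chr10:44268315-44268340, plus strand: gagcgcttgcCACGTGgtcttggtga
Atg7, chr6:114670954-114670979, plus strand: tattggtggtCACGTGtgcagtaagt
Lamp1 held 4 copies, between 61 and 15 bases before its start, and Ctsa, Ctsd, Gla and Mcoln1 held 2 each.

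Sorted libraries held 1901743 to 5279746 counts each and knockout libraries 1336742 to 4370138, so that 3 counts equal 0.568 to 1.58 and 0.686 to 2.24 CPM, the count scaled to a common library total. All 31 members passed the filter on low counts in each set. Mitochondrial genes took 4.61 to 12.5% of sorted and 0.715 to 3.24% of knockout counts. The 12 Sertoli markers took 0.502 to 0.931% of sorted and 1.23 to 1.43% of knockout counts. Of these, Clu reached 45809 counts in a library and Cldn11, the next, 4293, so Clu weighs heavily in the sum. Other cells' transcripts were present in both sets. The 7 elongating spermatid genes took 0.207 to 1.58% of sorted counts, and Insl3 and Lhcgr, defining Leydig cell genes, were at 0 in the sorted libraries. The 6 Leydig genes took 0.196 to 0.560% of knockout counts, against at most 0.00439% of sorted counts. The 7 elongating spermatid genes took 0.015 to 0.0222% of knockout counts, and of them only Akap4, of the sperm tail, was at 0 in all 18 libraries. On days 48 and 50, 6 of the 7 were at 0 and Odf2 alone made the sum. In the knockout set 1 of the 7 passed the filter on low counts. The 5 spermatogonia genes took 0.0097 to 0.024% of sorted and 0.00897 to 0.02% of knockout counts. In each set, a lower level can come from fewer cells of a type or less RNA per cell, and these cannot be told apart.

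Levels below are CPM scaled once over all 28 libraries, called scaled CPM, and fold changes are log2 values from edgeR quasi-likelihood fits to raw counts. A gene was called where its Benjamini-Hochberg adjusted p over all genes tested was under 0.05. Per kilobase of exon, Psap, the precursor of the saposins that help break down sphingolipids, had the highest level of the members in both sets, at 630 CPM per kb in sorted cells and 617 CPM per kb in the knockout. In sorted cells the membrane protein gene Lamp1 (191 CPM per kb), the glycosidase Hexa (155), Laptm4a (153) and Gabarap (151) followed. In the knockout the aspartic protease Ctsd (220 CPM per kb) came next, then Lamp1 (160), Laptm4a (158) and the cargo receptor Sqstm1 (146). Gla, the alpha-galactosidase, had the lowest level per kb of the members in both sets, 2.26 and 3.89 CPM per kb. These levels are means over 10 and 18 libraries with no test between genes.

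**Figure D1:**
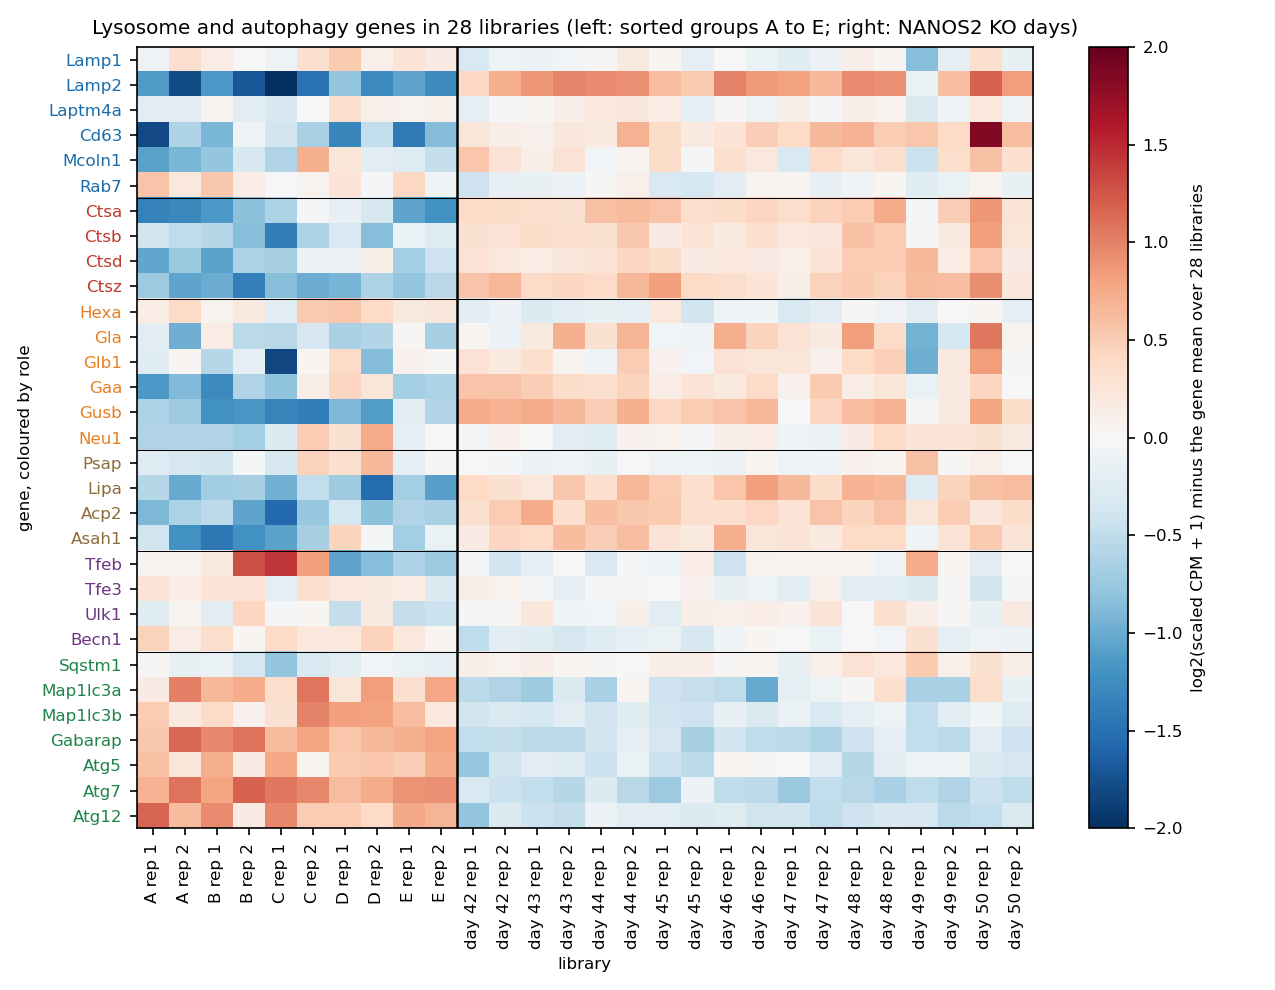
Each row is a member, grouped and coloured by role, and each column a library, with sorted groups A to E left of the black line and NANOS2 KO days to its right. Colour is log2(scaled CPM + 1) minus the gene's mean over the 28 libraries, with colours limited at 2 in either direction. Lamp2, Gusb, Ctsz, Lipa and Acp2 are higher on the right, and Gabarap, Atg7 and Atg12 are higher on the left.

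The first comparison asks whether lysosome and autophagy genes vary with the stage of the cycle in sorted Sertoli cells. Tfeb (chr17:47737030-47792419, plus strand), a master regulator of lysosomal and autophagy genes, changed most. Its scaled CPM was 50.99 and 50.95 in the 2 libraries of A, 55.9 and 120.5 in B, 132 and 86.4 in C, 22.8 and 26.6 in D, and 31.2 and 28.9 in E. Both D libraries lay below the other 8 sorted libraries, and the E libraries were the next lowest. The highest level was that of C replicate 1, followed by B replicate 2, and the libraries of B differed from each other by more than those of any other group. Among the 5 groups Tfeb was the only member called by the F test (edgeR quasi-likelihood, adjusted p = 0.00775), where 8.07% of the 14331 genes tested were called. At an unadjusted p under 0.05, 6 members passed, against 21.9% of all genes.

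The change of Tfeb was sharpest between C and D. Group C stood above the mean of the other groups by a log2 fold change of 1.37 (SE 0.26, edgeR adjusted p = 0.0153), the 1 member called there against 2.64% of genes. From C to D Tfeb fell by 2.15 on the log2 scale (SE 0.38, edgeR adjusted p = 0.0250), again the 1 member called, against 0.628% of genes. The call for C was lost without C replicate 1, E replicate 1 or E replicate 2, and the call for the step was lost without C replicate 1 or any library of D or E (log2 from -2.43 to -1.79). The F test call held with each of the 10 libraries left out in turn (adjusted p from 0.00324 to 0.0468).

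Tfe3, the paralogue of Tfeb that binds the same motif, did not follow this course. Its scaled CPM ran from 197 in E replicate 2 to 296 in C replicate 2, and its group means differed by at most 1.25-fold, against 4.42-fold for Tfeb. In D it stood at 275 and 273, inside the range of the other groups (log2 0.08, SE 0.21). Ulk1, the kinase that starts autophagy, ranged from 45.2 to 86.0 scaled CPM in sorted cells, and Becn1, a subunit of the lipid kinase complex that nucleates the membrane, from 177 to 237. Neither was called in a stage comparison.

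**Figure D2:**
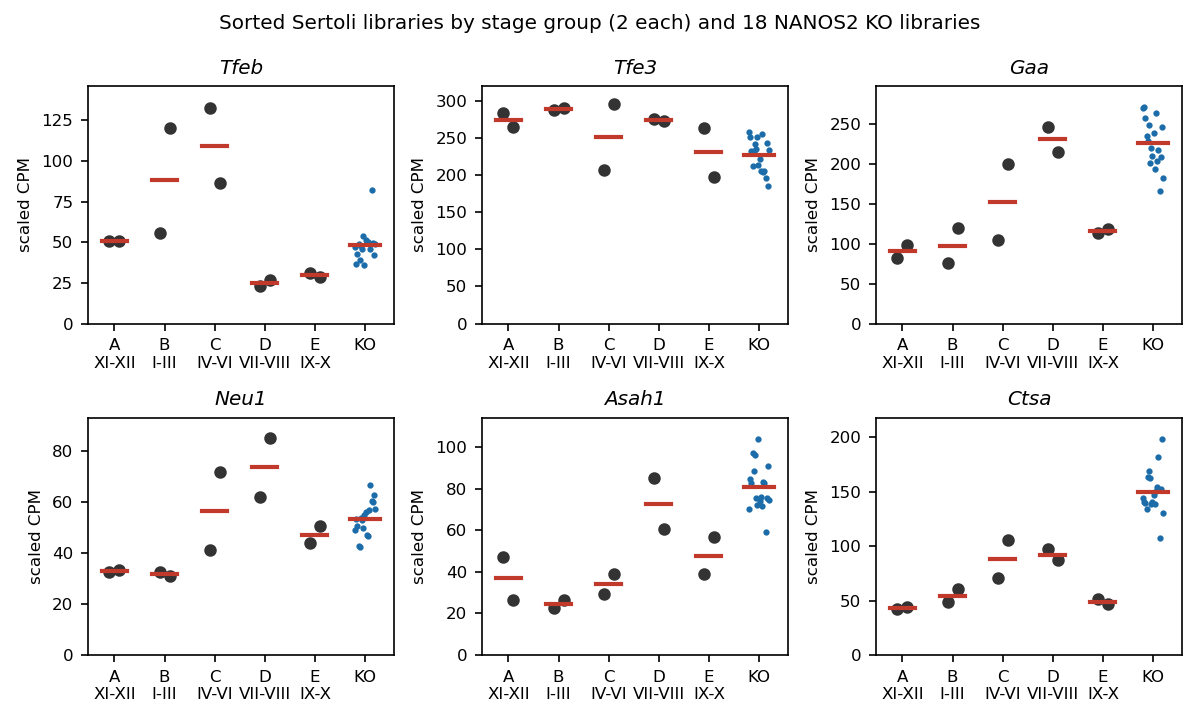
Scaled CPM of 6 members in the 2 sorted libraries of each stage group (dark points) and in the 18 NANOS2 KO libraries (blue points), with the mean as a red bar. The y axes start at 0. Tfeb is lowest in D at 22.8 and 26.6, Gaa and Asah1 are highest in D, and Tfe3 spans 197 to 296 in sorted cells.

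Group D, stages VII-VIII, which end with sperm release, had 3 hydrolase genes above the mean of the other 4 groups and Tfeb below it. These 4 of 31 members were called, against 8.65% of all genes tested (4.36% higher and 4.28% lower), and the members' median log2 fold change was 0.11, against 0.04 over all genes. By sign, 20 members were positive and 11 negative. Gaa (chr11:119267887-119285454, plus strand) encodes the acid alpha-glucosidase that breaks down glycogen in lysosomes. Its scaled CPM was 246 and 216 in D, above every other sorted library, against 81.9 and 99.0 in A, 75.3 and 120 in B, 105 and 200.04 in C and 113 and 118 in E. The rise in D was 1.05 (log2, SE 0.24, edgeR adjusted p = 0.0160).

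Asah1 (chr8:41340197-41374773, minus strand), the acid ceramidase, also lay above the other 8 libraries in both D libraries. It stood at 85.3 and 60.5 scaled CPM in D, 47.1 and 26.6 in A, 22.6 and 26.4 in B, 29.4 and 39.0 in C, and 38.8 and 56.7 in E (log2 1.07, SE 0.27, edgeR adjusted p = 0.0261). E replicate 2 came close to D replicate 2. Neu1 (chr17:34931253-34935953, plus strand), the lysosomal sialidase, stood at 62.0 and 85.1 in D and at 32.7 and 33.2 in A, 32.65 and 31 in B, 41.3 and 71.7 in C, and 43.7 and 50.5 in E. Here C replicate 2 overlapped D, and the rise of 0.86 (log2, SE 0.24) was just past the threshold (edgeR adjusted p = 0.0444). That call was lost in 3 of 8 other settings, with no filter and in 2 limma settings (adjusted p up to 0.0866). For Tfeb the fall in D came to 1.32 on the log2 scale (log2 -1.32, SE 0.32, edgeR adjusted p = 0.0205).

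Ctsd, the aspartic protease, was at 387 and 453 scaled CPM in D, also above the other 8 libraries (198 to 386), but was not called (log2 0.67, SE 0.21, edgeR adjusted p = 0.0630). Ctsa, the protease that protects NEU1 and beta-galactosidase, was likewise near the threshold (log2 0.72, SE 0.21, edgeR adjusted p = 0.0572). In all, 3 members lay above the other groups in both D libraries and 1 below, against 5.91% and 8.23% of all genes tested. The membrane and autophagosome genes gave no call. Lamp1 stood at 651 and 485 in D and at 418 to 567 elsewhere, and Gabarap at 234 and 251 in D and at 233 to 354 elsewhere.

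The summed scaled CPM of the members was 7327 and 7589 in D, 6123 to 6179 in E, 5756 to 5902 in B and 5819 to 5830 in A. In C it was 5233 in replicate 1 and 7480 in replicate 2, so that C replicate 2 reached the level of D. Psap supplied much of this sum, with 2094 and 2638 in D and 2316 in C replicate 2, against 1299 to 1710 in the other 7 sorted libraries. In C, 23 of the 31 members were higher in replicate 2, and the Sertoli markers took 0.502% of counts in replicate 1 and 0.931% in replicate 2. Both D libraries had 0.883% of Sertoli markers, against 0.567 to 0.812% in A, B and E. Their elongating spermatid genes took 0.207 to 0.335% of counts, against 0.862 to 1.58% in the other groups. The 12 macrophage genes took 0.0179 to 0.0192% in D and 0.0251 to 0.0419% elsewhere, but only 4 of them passed the filter in sorted cells. Emr1, Lyz2 and Tyrobp were at 0 in D, and the same genes and Cd163 were at 0 in C. Tyrobp was also at 0 in E, C1qc in A and Cd163 in B. The 4 endothelial genes took 0.00231 to 0.00269% in D, 0.00105 to 0.00277% in C, 0.000894 to 0.00115% in B and 0.000285 to 0.000417% in A and E. Higher calls in D took in 2 of 3 endothelial genes tested, 2 of 6 round spermatid, 2 of 5 spermatocyte, 1 of 3 Leydig and 2 of 12 Sertoli genes. Lower calls took in 6 of 7 elongating spermatid genes, 1 of 5 spermatocyte and 1 of 4 macrophage genes. The part of these cell contents in the result was not tested.

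Calls in D rest on few libraries. Gaa lost its call without either D library, Asah1 and Tfeb also without E replicate 1, and Neu1 in 7 of 10 such fits. Without D replicate 1 no member was called, and without C replicate 2 there were 7.

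**Figure D3:**
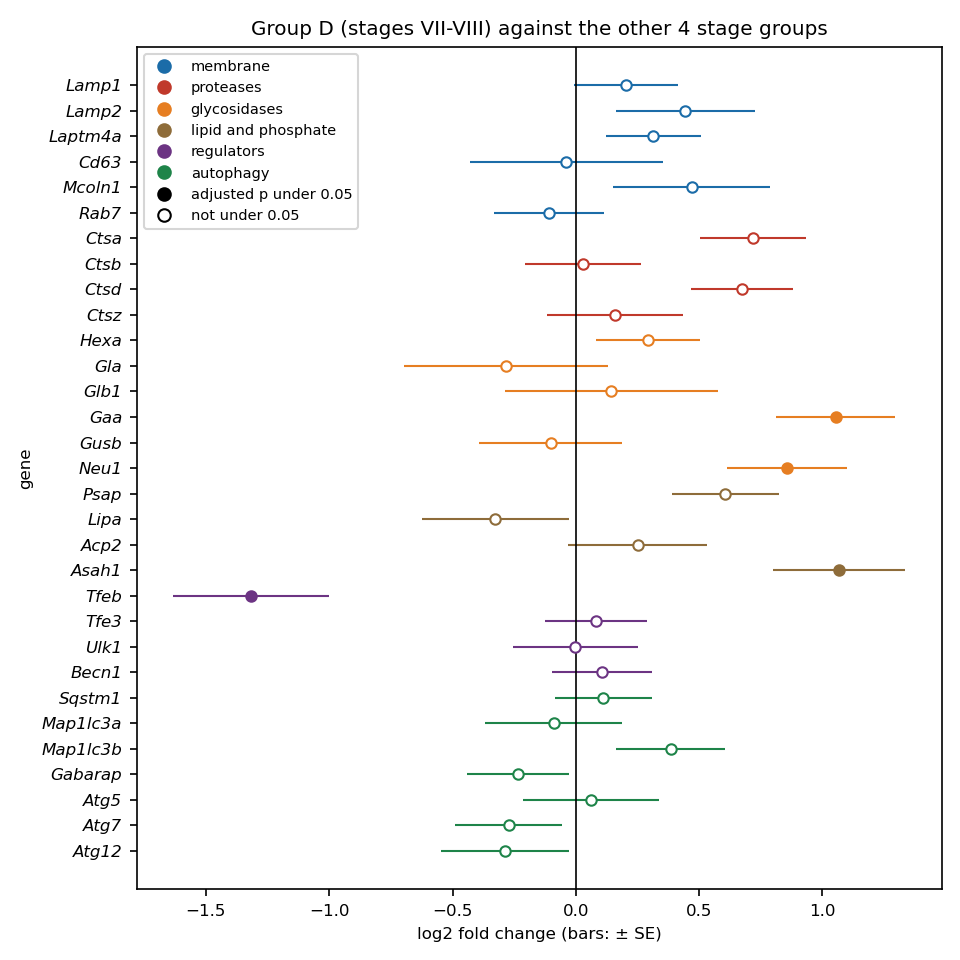
Log2 fold change (± SE) of each member in group D against the mean of groups A, B, C and E, coloured by role, with filled points where the adjusted p was under 0.05. Filled points are Gaa, Neu1 and Asah1 to the right and Tfeb to the left at -1.32, and the open points of the other members lie between -0.33 and 0.72.

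A wider contrast set stages IV-VIII (C and D) against IX-XII (A and E). It called 2 members, both higher, against 14.2% of genes (7.29% higher), and the members' median was 0.07 against -0.01 over all genes. Ctsa (chr2:164832873-164841032, plus strand) was at 70.7 and 106 scaled CPM in C and 97.4 and 87.2 in D, against 41.8 and 43.6 in A and 51.5 and 46.5 in E. The 4 libraries of C and D lay above the 4 of A and E (log2 0.99, SE 0.20, edgeR adjusted p = 0.00613), and the call held with each library left out. Gaa was higher by 0.89 (log2, SE 0.23, edgeR adjusted p = 0.0223), a call lost without C replicate 2 or any library of D or E. Gusb, the beta-glucuronidase, ran the other way, with 9.93 to 14.2 in C and D and 16.1 to 23.6 in A and E, but was not called (log2 -0.68, SE 0.25, edgeR adjusted p = 0.0909). Markers of other cells also moved in this contrast, with 3 of 3 endothelial, 3 of 6 round spermatid, 3 of 5 spermatocyte and 1 of 3 Leydig genes tested higher. Lower were 5 of 7 elongating spermatid and 1 of 4 macrophage genes. Their part in the members' changes was not tested. Exons of Ctsa overlap those of Neurl2 and Pltp on the other strand, and whether counting used strand is not given in the sources used here.

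No member was called for A, B or E against the other groups, or from D to E, by edgeR. The share of all genes called was 1.67%, 0.0419%, 0.523% and 3.56%. DESeq2 and limma also called 0 members in these comparisons. Between A and the rest the smallest p-values belonged to Ctsa (log2 -0.68, SE 0.24) and Mcoln1, the lysosomal calcium channel (log2 -0.86, SE 0.35). Mcoln1 stood at 16.7 and 18.5 scaled CPM in A and at 23.3 and 59.2 in C.

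Among 137 other genes of the pathway, listed by function, 127 could be tested in sorted cells and 7 were called in D, 4 higher and 3 lower (5.51%, against 8.65% of all genes). Galc, which breaks down galactosylceramide, was the clearest. It stood at 50.8 and 46.6 scaled CPM in D and 52.7 and 44.1 in C, against 9.83 and 10.7 in A, 25.1 and 19.0 in B, and 16.0 and 20.4 in E. All 4 libraries of C and D were above the other 6, and C and D exceeded A and E by 1.84 (log2, SE 0.23, edgeR adjusted p = 0.000283). In D against the others Galc rose by 1.21 (SE 0.24), Vps18, a subunit of the complexes that tether vesicles to lysosomes, by 1.03 (SE 0.22) and the protease Ctsf by 0.97 (SE 0.22). Lower in D were the autophagy receptor Nbr1 (log2 -1.13, SE 0.23), Sort1, which sorts hydrolases to lysosomes (-0.74, SE 0.20), and the protease Lgmn (-0.76, SE 0.22). Nbr1 stood at 199 and 301 in D and at 400 to 709 elsewhere. The calls of Galc, Vps18, Ctsf and Nbr1 held under each of 8 other settings, while those of Galc, Vps18 and Ctsf were lost without either D library and that of Nbr1 without D replicate 1. The calls of Sort1 and Lgmn were each lost in 6 of 10 fits that left out a library, and by unfiltered limma.

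Gm2a, the activator protein for ganglioside breakdown, had the opposite course to Galc in C and D against A and E. It fell by 1.24 on the log2 scale (log2 -1.24, SE 0.23, edgeR adjusted p = 0.00316), with 728 and 1275 scaled CPM in C, 1121 and 890 in D, 2841 and 2901 in A and 2265 and 1742 in E. Lgmn also fell in that contrast (log2 -1.03, SE 0.18), and Gabarapl1, a relative of Gabarap, rose (0.84, SE 0.18). Naglu, which degrades heparan sulfate, rose as well (1.05, SE 0.23). The contrast called 10 of the 127 genes (7.87%, against 14.2% of all genes), 8 higher and 2 lower. In the F test 7 were called (5.51%, against 8.07%), with Galc at an adjusted p of 0.00309 (edgeR). Galc was also called in A (log2 -1.60), in C (1.21) and from D to E (-1.43). Lgmn rose from D to E (1.16), and Fuca1, the alpha-fucosidase, was called in C (0.82). Of 10 fits that left out a library, 7 lost the call of Fuca1, 4 those of Galc and Lgmn from D to E (without any library of D or E), and 3 those of Galc in A and in C. Unfiltered limma lost all of these but Galc in A.

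The members with the core CACGTG in their window were described beside those without it. In D their median log2 fold change was 0.20 over 9 genes, with 7 positive, against 0.11 over 17 members without the core. Over all genes tested, both medians were 0.05. In A, 1 of the 9 was positive (median -0.19), against 10 of 17 without it (median 0.01). In C and D against A and E the medians were 0.07 with the core and 0.08 without, from C to D 0.08 and 0.15, and from D to E -0.13 and -0.14. Of the called members, Gaa and Ctsa carry the core in their windows and Neu1 and Tfeb do not, while Asah1 has no window in the table.

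The next comparison set germ cell-free whole testis against sorted Sertoli cells. Among the members, lysosomal hydrolases were mostly higher in the knockout and the autophagosome genes mostly lower. Of the 31 members, 27 were called, 16 higher and 11 lower, and 10 of them differed by at least 2-fold. Over all 15777 genes tested, 85.1% were called (38% higher and 47% lower) and 52.9% were called with at least 2-fold, so the members' share is near the background. Their median log2 fold change was 0.21, against -0.17 over all genes. Strain, sorting, germ cells and the other cells of whole testis differ together between the sets and cannot be told apart.

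Among membrane genes 3 of 6 were higher and 2 lower. Lamp2 (chrX:38401357-38456454, minus strand), a main protein of the lysosomal membrane that also serves in autophagy, showed the largest change of the members. It ran from 24.1 to 58.2 scaled CPM in sorted cells (median 41.1) and from 91.4 to 227 in the knockout (median 179), with no overlap (log2 2.14, SE 0.11, edgeR adjusted p = 2.28e-15). Cd63, a tetraspanin of late endosomes, ran from 7.32 to 26.4 in sorted cells and from 29.9 to 104 in the knockout (log2 1.33, SE 0.16). Mcoln1 was higher by 0.57 (SE 0.13). Lamp1 was lower by a little (log2 -0.26, SE 0.09), at 418 to 651 against 248 to 568, and so was the late endosome GTPase Rab7 (-0.34, SE 0.08). Laptm4a differed by 0.05 (SE 0.07) and was not called.

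All 4 proteases were higher in the knockout. Ctsz, a carboxypeptidase, ran from 12.8 to 23.1 scaled CPM in sorted cells and from 37.6 to 67.1 in the knockout (log2 1.43, SE 0.11, edgeR adjusted p = 2.95e-12). Ctsa ran from 41.8 to 106 and from 107 to 198 (log2 1.26, SE 0.09), the ranges nearly touching. Ctsb, a cysteine protease, was at 178 to 424 in sorted cells and 460.5 to 826 in the knockout (0.90, SE 0.09), and Ctsd at 198 to 453 and 449 to 660 (0.83, SE 0.08).

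Of 6 glycosidases, 5 were higher and 1 lower. Gusb ran from 9.93 to 23.6 scaled CPM in sorted cells (median 13.2) and from 27.6 to 48.3 in the knockout (median 41.8), without overlap (log2 1.51, SE 0.10, edgeR adjusted p = 2.64e-13). Gaa was higher by 0.80 (SE 0.10), and its D libraries, at 246 and 216, lay inside the knockout range of 166 to 271. Gla rose by 0.74 (SE 0.17), the beta-galactosidase Glb1 by 0.45 (SE 0.18) and Neu1 by 0.21 (SE 0.09). Hexa, a subunit of beta-hexosaminidase, was lower by 0.39 (log2 -0.39, SE 0.08).

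Of the lipid and phosphate genes, 3 of 4 were higher. Lipa, the acid lipase that frees cholesterol from its esters, ran from 20.9 to 44.5 scaled CPM in sorted cells and from 52.3 to 111 in the knockout (log2 1.32, SE 0.11, edgeR adjusted p = 3.42e-11). Acp2, the lysosomal acid phosphatase, ran from 19.2 to 45.2 and from 68.3 to 98.0 (1.23, SE 0.10). Asah1 was higher by 1.00 (SE 0.11). Psap did not pass the test, at 1299 to 2638 in sorted cells and 1510 to 2533 in the knockout (log2 -0.01, SE 0.08).

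In the autophagy group 6 of 7 were lower and 1 higher. Gabarap, whose protein is joined to the growing autophagosome membrane, ran from 233 to 354 scaled CPM in sorted cells and from 100.2 to 142 in the knockout (log2 -1.23, SE 0.07, edgeR adjusted p = 2.63e-14). Atg7, the enzyme that activates the LC3 and GABARAP proteins and ATG12 for conjugation, ran from 63.3 to 93.8 and from 24.0 to 37.6 (-1.42, SE 0.08, edgeR adjusted p = 3.97e-14). The conjugation partners Atg12 (-1.07, SE 0.09) and Atg5 (-0.79, SE 0.10) were lower too, as were Map1lc3a (-0.99, SE 0.11) and Map1lc3b (-0.78, SE 0.08), which encode LC3 proteins. Of these 6 genes Map1lc3a alone overlapped between the sets, at 88.7 to 166 against 38.7 to 100.3. Sqstm1, the cargo receptor p62, was higher by 0.35 (SE 0.07), at 261 to 454 against 402 to 644.

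Regulators moved little. Becn1 (log2 -0.39, SE 0.07) and Tfe3 (-0.22, SE 0.07) were lower, while Tfeb (-0.12, SE 0.12) and Ulk1 (0.17, SE 0.09) were not called. The knockout Tfeb range of 36.1 to 82.4 scaled CPM lay above both D libraries and below B replicate 2 and both C libraries. In all, 13 members did not overlap between the sets, 8 higher and 5 lower in the knockout, against 41.7% of all genes (17.2% higher and 24.6% lower). The first are Lamp2, Cd63, Ctsa, Ctsb, Ctsz, Gusb, Lipa and Acp2, and the second are Map1lc3b, Gabarap, Atg5, Atg7 and Atg12.

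**Figure D4:**
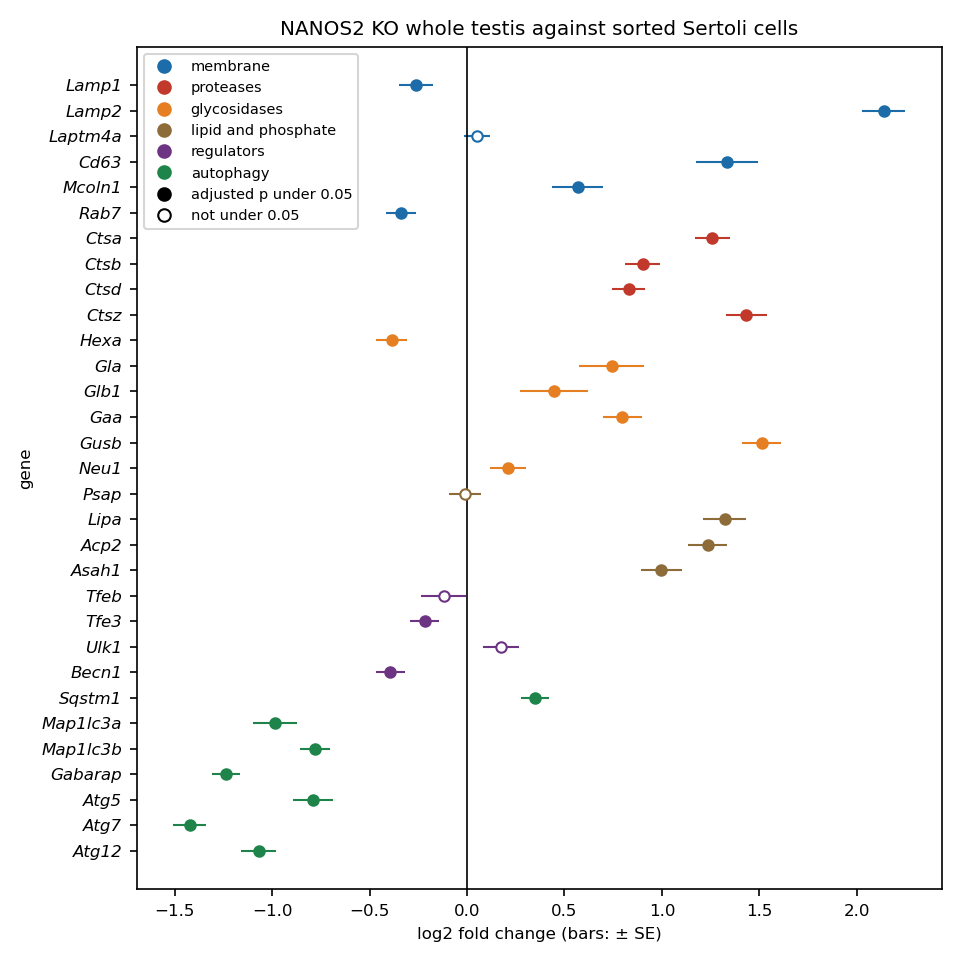
Log2 fold change (± SE) of each member in NANOS2 KO whole testis against sorted Sertoli cells, coloured by role, with filled points where the adjusted p was under 0.05. Proteases lie right of 0, from 0.83 to 1.43, and autophagy genes other than Sqstm1 lie left of 0, from -1.42 to -0.78.

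These directions depend on the scaling for the smaller changes. Scaling by library totals moved the median of all genes from -0.17 to 0.21, and the share of calls that were higher from 44.7 to 56.4%. Scaling by the Sertoli markers moved them to -0.72 and 29.7%. That scaling uses the sum of 12 markers that did not move alike. In the main scaling 6 were called higher and 4 lower in the knockout (log2 from -1.76 to 2.62). Through each of 10 other settings and with each of the 28 libraries left out, 17 of the 27 calls kept their direction and their call, 11 higher and 6 lower. The 11 are Lamp2, Cd63, the 4 proteases, Gaa, Gusb, Lipa, Acp2 and Asah1, and the 6 are the lower autophagy genes. Lamp1, Rab7 and Tfe3 turned positive by library totals, and Glb1, Neu1 and Sqstm1 turned negative by the Sertoli scaling. Gla and Mcoln1 lost their calls by the Sertoli scaling, and Becn1 and Hexa by library totals. The limma settings among the 10 also scale by library totals, without TMM factors, and are not separate from it in this respect. Exons of Lamp1, Rab7, Ctsa, Ctsb, Ctsd, Ctsz, Hexa, Glb1, Acp2, Becn1, Sqstm1 and Map1lc3b overlap those of another gene, so the assignment of some of their reads is uncertain. Measured against the median of all genes, 20 of 31 members lay above it in the main scaling, by library totals and by Sertoli scaling. Such scaling shifts all genes, and so their median, by nearly the same amount. This count could therefore hardly change and is no check of the scaling.

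Transcripts of other cells moved with this comparison. The 12 macrophage genes took 0.0179 to 0.0419% of sorted counts and 0.0720 to 0.106% of knockout counts, and 10 of the 12 were higher and 1 lower in the knockout. Their median log2 fold change was 5.93, with a range from -4.45 to 9.93, so the summed share does not give the change of most of them. Leydig genes were higher in 6 of 6, as were 5 of 5 smooth muscle-like myoid genes and 4 of 4 endothelial genes, while 7 of 7 elongating spermatid genes were lower. Among the other genes of the pathway, 103 of 135 tested were called, 50 higher and 53 lower (76.3%, against 85.1% of all genes). Ctss, a protease of macrophages and other antigen-presenting cells, ran from 0 to 1.16 scaled CPM in sorted cells and from 34.8 to 63.4 in the knockout. Laptm5, a lysosomal membrane gene of blood cells, was higher by 6.48 (log2, SE 0.20) and the arylsulfatase Arsb by 4.15 (SE 0.13). Arsa, its relative that acts on sulfatide, was lower (-3.03, SE 0.15), and so were Atg9a (-2.94, SE 0.15), which carries lipid to the autophagosome, and the proton pump subunit Atp6v1g1 (-1.44, SE 0.07). The part of other cell types in the members' changes was not tested.

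By function, the other hydrolases had 20 higher and 6 lower of 35, and the other membrane genes 11 higher and 5 lower of 20. The proton pump that acidifies the lysosome had 4 subunit genes higher and 12 lower of 16 tested, with a median log2 fold change of -0.58. Genes of mTORC1, the kinase complex that senses nutrients at the lysosome, had 5 higher and 7 lower of 16. The other autophagy genes had 10 higher and 23 lower of 48, with a median of -0.11 against -0.17 over all genes. Over all genes tested 38% were called higher and 47% lower. The other autophagy genes were thus lower about as often as genes in general, unlike the autophagy members.

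The last comparison followed the knockout testis from day 42 to day 50, to see whether the members drift or cycle without germ cells. No member differed among the 9 days by the edgeR F test, where 0.582% of 13065 genes were called and 4 members had an unadjusted p under 0.05, against 11.1% of genes. A likelihood ratio test among the days by DESeq2 called 1 member, and the F test by limma 0. Map1lc3a had the smallest p of the members (edgeR adjusted p = 0.127), at 80.0 and 98.3 scaled CPM on day 48 and 100.3 and 71.3 on day 50, but 50.2 and 50.1 on day 49 between them and 55.4 and 38.7 on day 46. A rhythm with the length of 1 seminiferous cycle, 8.6 days, called 0 members and 0% of genes by edgeR, with 3 members and 9.66% of genes at an unadjusted p under 0.05, and DESeq2 and limma called 0 members. A straight line over days called 1 member, Cd63 (chr10:128900989-128912822, plus strand), against 0.857% of genes. Its log2 slope was 0.12 per day (SE 0.03, edgeR adjusted p = 0.0361).

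Cd63 ran from 29.9 to 46.3 scaled CPM in 17 knockout libraries and reached 104 in day 50 replicate 1, while day 50 replicate 2 stood at 43.5. On days 42 and 43 the 4 libraries were at 33.7, 30.9, 29.9 and 33.2. Without day 50 replicate 1 the slope was 0.06 and the call was lost, as it was in 8 of the 18 fits that left out a library and in 3 limma settings. The library day 50 replicate 1 had the highest level of 12 of the 31 members, among them Lamp1 at 568, Lamp2 at 227, Ctsb at 826 and Gla at 21.9. Wdfy3, an adaptor for autophagy of protein aggregates, was the only other gene of the pathway called, with a fall of 0.08 per day (log2 -0.08, SE 0.01). Leydig genes took 0.196 to 0.203% of counts on day 42, 0.521 to 0.549% on day 48, 0.207 to 0.239% on day 49 and 0.323 to 0.560% on day 50. Of the 6, 3 were called in the F test among days and 1 in the line, higher, and their part in the members' values was not tested.

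Day 49 replicate 1 stood apart from the other knockout libraries. It had the lowest level of 12 members and the highest of 5, namely Ctsd, Psap, Tfeb, Becn1 and Sqstm1. Lamp1 was at 248 there against 365 to 568 in the other 17, Lamp2 at 91.4 against 134 to 227, Psap at 2533 against 1510 to 1799, and Tfeb at 82.4 against 36.1 to 54.1. The 2 libraries of day 49 differed by 10.7 times the sampling variance over genes, against 1.82 to 5.97 times on the other days. Every sorted group exceeded day 49 by this measure, from 10.9 times in B to 33.1 times in A, with 22.7 times in D. This measure can grow with depth, and the libraries of A held 5235746 and 5151966 counts, against 1728743 and 2767993 on day 49. The order of the groups is therefore not free of depth. The biological coefficient of variation of the fits was 0.268 for sorted and 0.122 for knockout libraries, so the stage comparisons rest on pairs that differ more. Mitochondrial genes took 0.715% of counts in day 49 replicate 1, against 2.33 to 3.24% in the other 17, and the part of this in the members' values was not tested. Without day 49 the line called 2 members, Cd63 among them with a slope of 0.14 (edgeR adjusted p = 0.00776).

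**Figure D5:**
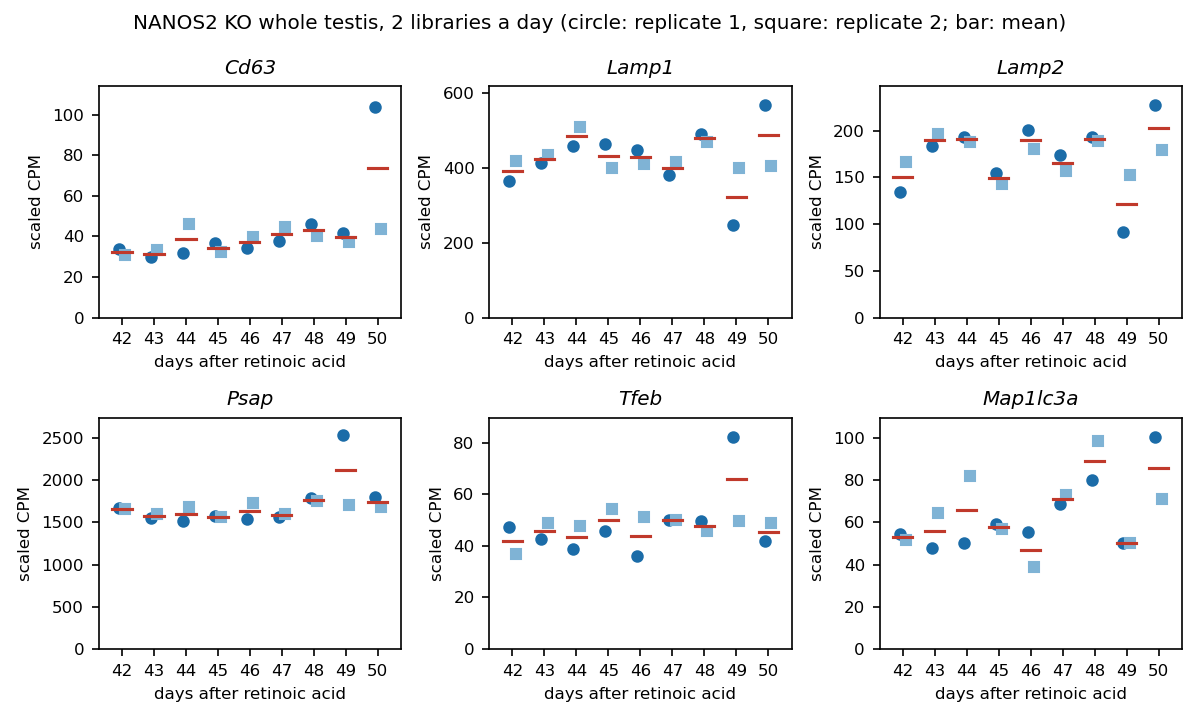
Scaled CPM of 6 members in each NANOS2 KO library by days after retinoic acid, with replicate 1 as circles, replicate 2 as squares and the mean of each day as a red bar. The y axes start at 0. Day 49 replicate 1 is low for Lamp1 (248) and Lamp2 (91.4) and high for Psap (2533) and Tfeb (82.4), and day 50 replicate 1 is high for Cd63 (104).

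Spread among knockout libraries was small for most members. Over the 18 libraries the coefficient of variation was lowest for Map1lc3b (7.92%) and highest for Cd63 (39.9%), followed by Gla (33.8%). Without day 50 replicate 1 that of Cd63 was 14.5%. That of Tfeb was 20.5%. Over the 10 sorted libraries it was lowest for Becn1 (10.9%) and highest for Tfeb (65.2%), followed by Asah1 (45.5%), Gaa (43.8%) and Mcoln1 (43.2%). The sorted value includes differences between stage groups, and the knockout value includes differences between days.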

How the data were processed

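Polyadenylated RNA was read on the Ion Proton, per the labels' protocols. Per the submitters' processing notes, the tools were Bowtie, TopHat and Cufflinks with mm10; the sources used here do not name the counting step or its use of strand. Deposited tables hold raw counts per gene symbol, and the authors' tables named FPKM hold CPM, each value equal to count over total within 0.0005. Among the knockout count columns, 2 share a header of day 42, and each took its replicate from the identical CPM column. Symbols turned into dates (27) are not named. The members, lists, comparisons and alternatives were chosen with earlier results of these data known.

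Counts were filtered (filterByExpr), scaled by TMM and entered into quasi-likelihood F tests (edgeR 4.0.16, R 4.3.3), in 3 fits of sorted, knockout and all libraries, with a biological coefficient of variation of 0.268, 0.122 and 0.192. Each stage group was set against the equal-weight mean of the others, and the knockout days against the stage groups likewise. Joint TMM factors were 0.796 to 0.887 in sorted and 1.07 to 1.14 in knockout libraries, and scaled CPM uses them. Gene positions and exon lengths come from GENCODE M21 (GRCm38). Every called member is named, and of other pathway genes up to 3 in each direction with the smallest p. Alternatives were RLE or no scaling beyond totals, no filter, DESeq2 1.42.0, limma 3.58.1 with trend on log2(CPM + 1) or log2(CPM + 0.1) or unfiltered, a replicate block, Sertoli marker scaling and leaving out each library. Of these tests, D against the others, the day line and the knockout against sorted cells were checked on simulated data. The simulated counts had the same spread for every gene and few changed genes. These data differ in both, so that check does not show how sound the calls here are. The other comparisons were not checked in this way. Intervals from 3 counts cover counting error only.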

Additional observations from a re-analysis of the deposited data

How the results depend on the processing

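Counts of called members moved as follows. The share of all genes called in each setting is not given beside them, so these counts do not show whether members moved apart from other genes. The stage F test (1) gave 3 by library totals, 3 with no filter, 2 by limma on log2(CPM + 1) and 2 on log2(CPM + 0.1). In its place DESeq2 used a likelihood ratio test, which gave 5. Unfiltered limma gave 1 for D (4), 0 for C (1), 0 from C to D (1) and 1 for C and D against A and E (2). The knockout day F test (0) gave 4 with no filter, and the likelihood ratio test of DESeq2 gave 1. The day line (1) gave 0 in the 3 limma settings and 2 without day 49, a setting added after seeing the data. Members lower in the knockout (11) were 6 by library totals and in the 3 limma settings, and 17 by Sertoli scaling. The limma settings use CPM by library totals without TMM factors, so in scaling they repeat the library totals setting. The cause of the other shifts was not tested.

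Leaving out each library gave 1 to 4 for the stage F test, 0 to 7 for D, 0 to 1 for C, 0 to 1 from C to D, 1 to 5 for C and D against A and E, 0 to 6 for the day F test (6 without day 49 replicate 2) and 0 to 1 for the line. It gave 14 to 16 higher and 11 lower in the knockout, and 0 for A, B, E, D to E and the cycle.

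Among genes called and named, directions reversed in the knockout against sorted cells, and the cause was not tested. Over all members, 14 were positive in A, and 10 to 18 in other settings; in the day line 23 were, and 18 by limma. By library totals Lamp1 was 0.12, Rab7 0.043 and Tfe3 0.17. By limma, which here also scales by library totals, they were 0.12, 0.049 and 0.17 in each of 3 settings, with Hexa at 0.002. By Sertoli scaling Glb1 was -0.058, Neu1 -0.32 and Sqstm1 -0.19.

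Deviations of replicate 1 from its group mean correlated between -0.29 and 0.45 (median 0.12) over 10 sorted pairs. Over 36 knockout pairs they correlated between -0.29 and 0.18 (median -0.01). These values do not settle whether replicate numbers pair the sorted libraries, and the main fits have no replicate term. With a replicate block the stage F test called 3, D 6, C and D against A and E 4, C 1, C to D 1, the line 1, and the knockout 16 higher and 11 lower. Here too the share of all genes called is not given.

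With 2 libraries a group, smaller stage differences were hard to detect. The coefficient of variation of Cd63 in the knockout, 39.9%, was 14.5% without day 50 replicate 1, chosen after seeing the data. The exons of 12 members overlap another gene, among them Ctsa, Ctsb, Ctsd, Ctsz, Lamp1 and Map1lc3b but not Tfeb, Gaa, Neu1 or Asah1.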
